A study of Saccharomyces cerevisiae with 8 samples.

Results

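Budding yeast cultures treated with an active dihydropyrimidine-thione were set beside cultures treated with clioquinol (CQ), a hydroxyquinoline that binds metal ions. The material was 4 of the 8 RNA-seq libraries of the series, chosen by their labels alone: replicates 1 and 2 of the thione named 10{3,3,1}, given at 20 µM, and replicates 1 and 2 of CQ, given at 0.8 µM. The 2 DMSO solvent libraries served as the reference for each compound. The remaining 2 libraries, from the inactive thione 11 at 20 µM, entered the fit and are named where used. All cultures, controls included, were the W303 strain of Saccharomyces cerevisiae lacking pdr1 and pdr3, genes of transcription factors that activate drug efflux. They grew in log phase at 30 °C in a galactose medium and were exposed for 6 h. The growth protocol of the labels gives the doses in millimolar and calls the cells wild-type, against micromolar and the deletion strain elsewhere in the labels, and the latter are used here. Compound and dose differed together between the 2 treatments and cannot be told apart, so a difference below is one between these treated cultures and not between the compounds at equal dose. Nothing in the labels says that the replicates were separate cultures, and p-values then measure only the spread between these libraries.

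Yeast senses low iron through the transcription factors Aft1 and Aft2, which turn on cell-wall siderophore-binding proteins, ferric reductases, siderophore transporters and the Fet3-Ftr1 uptake complex. One of their targets, Tis11 (Cth2), binds mRNAs of iron-using proteins, many of them respiratory, and promotes their decay. Respiratory genes are also driven by the Hap2-Hap3-Hap4-Hap5 complex, which binds CCAAT boxes. Low copper is sensed by Mac1, low zinc by Zap1 and low phosphate by Pho4, which binds CACGTG and turns on acid phosphatases and phosphate transporters. Yeast respires more in galactose than in glucose medium.

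Promoter windows of 5 genes are shown because the largest differences between the treatments fell on the 3 groups these factors are known for: FIT3 and TIS11 for iron uptake, SDH2 for respiration, PHO5 and PHO89 for phosphate. Each window runs from 400 to 101 bases upstream of the start codon, 5′ to 3′ on the gene's strand. Sequences are from the RefSeq R64 genome, the S288C reference and not the W303 strain used. Capitals mark matches on either strand to TGCACCC (the Aft1 core), to CACGTG (the Pho4 site) or to CCAAT (the Hap box). The letters of these motifs do not overlap one another in the windows shown.
FIT3, chrXV:1061156-1061455, minus strand: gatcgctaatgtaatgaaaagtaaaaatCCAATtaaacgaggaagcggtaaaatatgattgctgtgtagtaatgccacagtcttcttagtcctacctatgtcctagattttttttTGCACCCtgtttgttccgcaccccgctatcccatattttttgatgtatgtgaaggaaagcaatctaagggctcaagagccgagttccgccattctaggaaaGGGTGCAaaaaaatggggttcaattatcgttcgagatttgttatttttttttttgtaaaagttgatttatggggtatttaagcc
TIS11, chrXII:416759-417058, minus strand: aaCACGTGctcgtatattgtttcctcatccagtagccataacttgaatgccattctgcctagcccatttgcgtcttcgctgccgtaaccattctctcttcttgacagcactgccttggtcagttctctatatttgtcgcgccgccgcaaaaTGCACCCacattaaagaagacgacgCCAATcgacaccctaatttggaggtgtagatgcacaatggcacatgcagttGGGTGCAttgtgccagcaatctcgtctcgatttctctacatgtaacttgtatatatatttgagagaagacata
SDH2, chrXII:54032-54331, minus strand: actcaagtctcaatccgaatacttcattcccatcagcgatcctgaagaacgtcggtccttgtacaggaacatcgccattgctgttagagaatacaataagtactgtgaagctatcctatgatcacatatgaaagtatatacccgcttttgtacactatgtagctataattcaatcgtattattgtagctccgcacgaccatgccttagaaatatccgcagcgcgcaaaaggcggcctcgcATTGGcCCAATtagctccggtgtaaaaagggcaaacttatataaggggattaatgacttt
PHO5, chrII:431052-431351, minus strand: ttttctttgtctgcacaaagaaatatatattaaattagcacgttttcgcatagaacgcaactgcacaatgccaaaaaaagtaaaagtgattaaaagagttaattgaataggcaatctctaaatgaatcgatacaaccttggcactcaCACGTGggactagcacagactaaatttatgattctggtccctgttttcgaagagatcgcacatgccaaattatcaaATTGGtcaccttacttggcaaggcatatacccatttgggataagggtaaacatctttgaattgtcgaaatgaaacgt
PHO89, chrII:798623-798922, minus strand: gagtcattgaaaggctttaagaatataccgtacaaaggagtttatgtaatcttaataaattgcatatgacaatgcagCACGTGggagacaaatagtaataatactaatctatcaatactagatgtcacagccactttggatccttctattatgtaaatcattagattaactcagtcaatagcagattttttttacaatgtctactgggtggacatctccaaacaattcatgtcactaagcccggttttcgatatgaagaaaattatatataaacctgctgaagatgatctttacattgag
FIT3 and TIS11 each hold the Aft1 core once on each strand. The TIS11 window overlaps RKM5 (417006 to 418109), and its Pho4 site lies inside that gene. The SDH2 window overlaps VPS13 (54211 to 63645), and its pair of Hap boxes, on opposite strands and 1 base apart, lies outside it. PHO5 and PHO89 hold the Pho4 site once each. In 6003 protein-coding windows of this length, the Aft1 core was found in 1.45%, the Pho4 site in 4.55% and the Hap box in 43.9%. The Aft1 core was found in 10.1% of the 257 windows of genes lower in the thione than in the CQ cultures and in 0.997% of the 702 windows of genes that were higher. The Pho4 site was found in 4.67% and 8.12% of these windows, and the Hap box in 44.4% and 50.0%. Among the gene groups described below, 17 of 33 iron regulon windows held the Aft1 core, 13 of 18 phosphate windows held the Pho4 site, and 22 of 28 respiratory chain and all 14 ATP synthase windows held the Hap box. The Hap box was present in 25 of 68 mitochondrial ribosome windows, 36.8%. The respiratory chain windows without a match to the Hap box were those of CYC1, CYC7, CYT1, COX4, COX26 and NDE2. A match is a run of letters and was not tested as a binding site.

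Library totals ran from 12076141 to 19021672 counts, with 6046 to 6136 features detected in each. PDR1 and PDR3 had 0 counts in all 8 libraries. The first principal component held 60.2% of the variance. CQ libraries stood at 45.4 and 34.88 on it and the other 6 libraries between -15.32 and -11.83. Between the 2 libraries of a group, counts differed with a chi-square per degree of freedom of 22.8 to 102.8, highest for CQ. On the second component the active thione libraries stood at 2.33 and -14.43 and the CQ libraries at -2.19 and 1.67. Levels below are CPM, counts scaled to the size of each library with TMM factors, and are compared between groups and not between genes. No source used here gives the counting strand, and reads of overlapping genes cannot be told apart.

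In the thione against the CQ cultures, 969 of 5696 tested features passed the edgeR threshold of adjusted p under 0.05, 17% of them. In the thione cultures 707 were higher (12.4%) and 262 lower (4.6%). At least 2-fold differences made up 442 of the higher (7.76%) and 109 of the lower (1.91%). Over all tested features the median difference was -0.02 on the log2 scale. Side by side against DMSO, CQ changed 758 features (13.3%), of which 280 rose (4.92%) and 478 fell (8.39%), and the thione 78 (1.37%), of which 63 rose (1.11%) and 15 fell (0.263%). These comparisons share the DMSO libraries. Groups did not overlap for 52.4% of tested features in the direct comparison, 57.1% for CQ against DMSO and 53.1% for the thione against DMSO. Separation of the libraries of a gene, where described below, is to be read beside these shares. Of the 707 features higher with the thione, 413 fell with CQ and were not called with the thione, 22 rose with the thione alone and 258 were called in neither comparison with DMSO. Of the 262 lower, 142 rose with CQ and were not called with the thione, 6 fell with the thione alone and 102 were called in neither.

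These totals depended on single libraries. Without CQ replicate 2 the direct comparison gave 1593 calls (907 higher, 686 lower), and without thione replicate 2 it gave 585 (467 higher, 118 lower). Without thione replicate 1 the lower features numbered 147. Calls present whichever library was left out numbered 507, 410 higher and 97 lower. Against DMSO, the CQ total was 367 or 404 when DMSO replicate 1 or 2 was left out and 1419 when CQ replicate 2 was. The thione total was 4 or 9 when DMSO replicate 1 or 2 was left out, 27 or 7 for thione replicate 1 or 2, and 45 or 43 for inactive thione replicate 1 or 2. Of its 78 calls, those of PHO5, PHO89, GIT1 and SPL2 were present whichever library was left out, and every other call of the thione against DMSO below lacks that property.

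**Figure D1:**
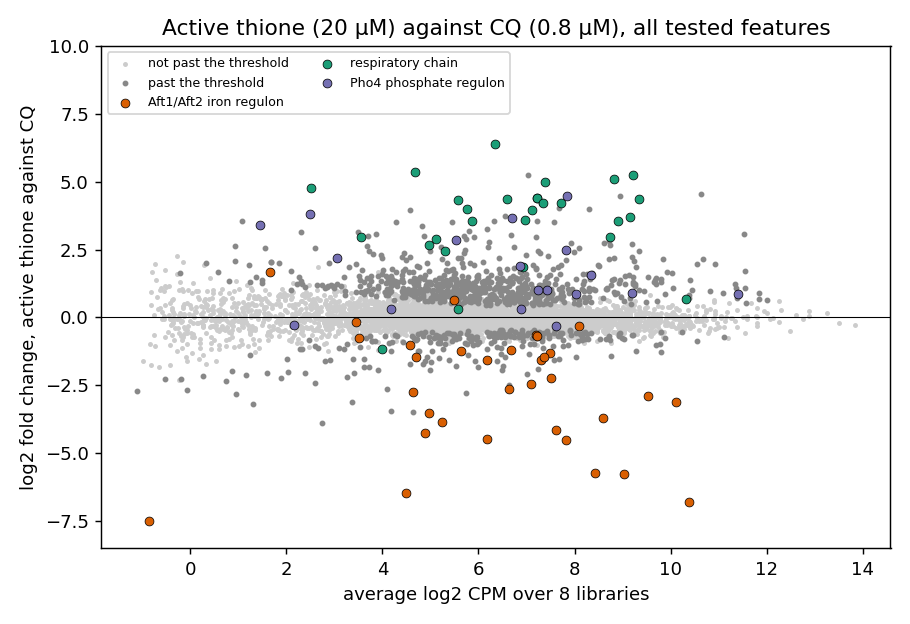
Each point is 1 of 5696 tested features, with its average log2 CPM over 8 libraries on the x axis and its log2 fold change in the active thione (20 µM) against the CQ (0.8 µM) libraries on the y axis; dark grey points passed the edgeR threshold. Iron regulon genes (orange) lie mostly below 0, respiratory chain genes (green) and phosphate genes (purple) mostly above it. The lowest point is LSO1, at 0 counts in the thione libraries, whose fitted value is not a measured fold.

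Genes of the Aft1/Aft2 iron regulon were lower in the thione than in the CQ cultures. Of 33 tested members, 27 were lower, 2 were higher and 4 did not pass, with a median of -2.44. Against DMSO, 30 of them rose and 2 fell with CQ (median 2.71), and 6 rose with the thione (median 0.38), a count that dropped to 0 when DMSO replicate 1 was left out and to 1 for DMSO replicate 2 or thione replicate 2. The count of falls with CQ also depended on the library left out, and was 1 with the CQ and DMSO libraries fitted alone. Setting LSO1, which had no thione counts, to its bound leaves the direct median at -2.44. In the direct comparison 25 of the 29 calls were present whichever library was left out.

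The mannoproteins that hold siderophores in the cell wall were among the genes with the largest differences. FIT3 read 14.6 and 17.7 CPM in DMSO, 5720 and 4807 with CQ, and 27.3 and 67.7 with the thione. Both thione libraries lay above both DMSO libraries and far below both CQ libraries. The difference of the thione from DMSO did not pass (log2 1.56, edgeR adjusted p 0.106). FIT3 was 110-fold lower in the thione than in the CQ cultures (log2 -6.79, SE 0.46, edgeR adjusted p 1.06e-05). FIT2 read 7.67 and 8.28 CPM in DMSO, 2300 and 1807 with CQ, and 25.3 and 50.2 with the thione, a log2 difference of -5.76 (SE 0.34). It rose 258-fold with CQ and 4.75-fold with the thione against DMSO.

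Siderophore transporters showed the same order of groups, with different distances of the thione from DMSO. ARN2, a transporter of fungal siderophores, read 14.9 and 15.5 CPM in DMSO, 1314 and 1330 with CQ, and 19.3 and 30.5 with the thione. ENB1, which takes up bacterial enterobactin, read 18.7 and 17.3 CPM in DMSO, 695 and 709 with CQ, and 37.6 and 41.4 with the thione. SIT1, a ferrioxamine transporter, read 33.5 and 34.6 CPM in DMSO, 1180 and 1516 with CQ, and 85.2 and 123 with the thione. The direct differences of these 3 genes were -5.73, -4.15 and -3.69 on the log2 scale. Against DMSO, ENB1 and SIT1 rose with the thione (2.19-fold and 3.06-fold), while ARN2 stood at 1.65-fold (edgeR adjusted p 0.168). ARN1, another siderophore transporter, read 28.9 and 28.6 CPM in DMSO, 794 and 828 with CQ, and 33.4 and 37 with the thione.

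The high-affinity uptake complex was lower in the thione than in the CQ cultures in both of its parts. FET3, the multicopper oxidase that oxidises ferrous iron, read 285 and 276 CPM in DMSO, 3604 and 3451 with CQ, and 390 and 426 with the thione. FTR1, its permease partner, read 273 and 276 CPM in DMSO, 2213 and 2107 with CQ, and 270 and 309 with the thione. They were 8.65-fold and 7.46-fold lower in the thione than in the CQ cultures (edgeR adjusted p 1.89e-06 and 2.7e-06). FTR1 with the thione overlapped DMSO. CCC2, which loads copper into Fet3, was 5.41-fold lower and FTH1, a vacuolar iron exporter, 4.7-fold lower than with CQ.

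The reductases that make iron and copper available differed among themselves. FRE1, which reduces both metals and answers to Aft1 and Mac1, read 24.1 and 21.2 CPM in DMSO, 298 and 322 with CQ, and 49.5 and 49.2 with the thione. FRE2 read 9.29 and 8.28 CPM in DMSO, 119 and 132 with CQ, and 8.54 and 8.96 with the thione. FRE1 thus stood above DMSO in both treatments, while FRE2 with the thione overlapped DMSO. FRE5 was close to 0 in DMSO, at 0.054 and 0.391 CPM, and read 99.5 and 74 with CQ and 0.419 and 1.45 with the thione.

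TIS11, which encodes the mRNA-decay factor described above, read 1.84 and 2.42 CPM in DMSO, 263 and 281 with CQ, and 9.8 and 14.8 with the thione. It was 21.9-fold lower in the thione than in the CQ cultures (log2 -4.46, SE 0.25, edgeR adjusted p 2.7e-06). The 3 groups did not overlap. Against DMSO it rose 129-fold with CQ and 5.89-fold with the thione, the latter with an edgeR adjusted p of 0.0832 without DMSO replicate 1. LSO1, a small protein gene, had 35 and 16 counts with CQ and 0 in all thione and DMSO libraries. Against a limit of 3 counts over both thione libraries it was at least 13.4-fold lower with the thione. Its edgeR adjusted p was 0.00836, 0.0509 without thione replicate 2, and 0.363 with DESeq2.

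The 2 members that were higher were BIO5 and CTH1. BIO5, a transporter of biotin precursors, was 3.21-fold higher in the thione than in the CQ cultures, with 0.862 and 1.14 CPM with CQ and 3.02 and 3.38 with the thione. CTH1, the paralog of TIS11, was 1.57-fold higher. Its call was absent without CQ replicate 1 (edgeR adjusted p 0.0906), thione replicate 1 (0.07) or thione replicate 2 (0.0831). Among members with smaller differences, HMX1, the haem oxygenase, was 2.98-fold lower, and TMT1, a methyltransferase, 1.62-fold lower, with an adjusted p of 0.1 without thione replicate 2. VHT1, ISU1, ISU2 and LEE1 did not pass, with log2 differences of -0.65, -0.31, -0.77 and -0.17. AFT1 itself read 53.6 and 52.4 CPM in DMSO, 185 and 151 with CQ, and 89 and 86.7 with the thione, and was 1.91-fold lower than with CQ.

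**Figure D2:**
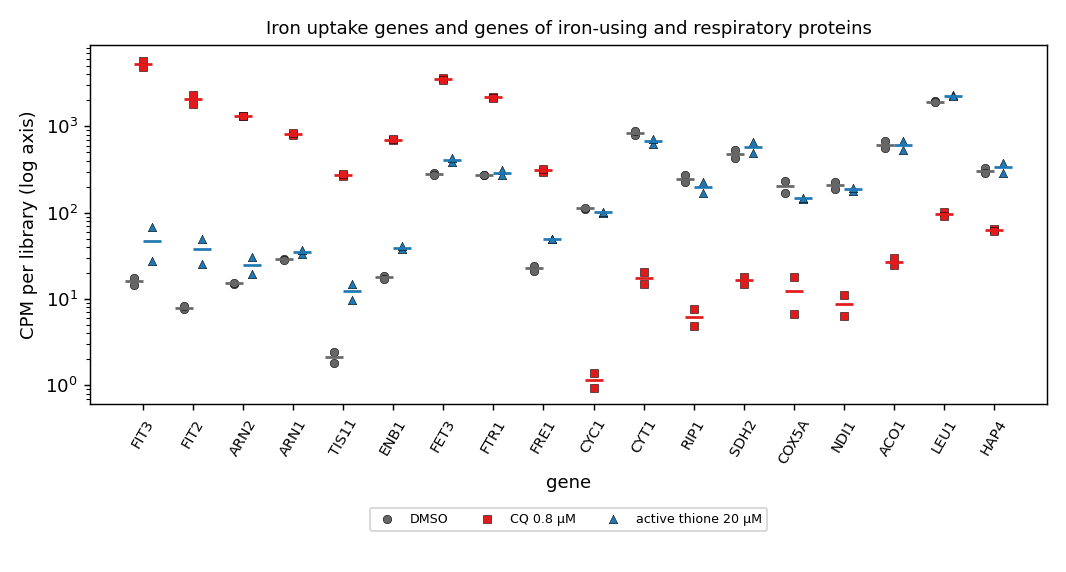
CPM of each library on a log axis (y) for 18 genes (x) in the DMSO, CQ (0.8 µM) and active thione (20 µM) groups; points are the 2 libraries and dashes their mean. FIT3 to FRE1 are high in the CQ libraries and CYC1 to HAP4 low in them, as with FIT3 at 5720 and 4807 CPM and CYC1 at 1.4 and 0.939 CPM.

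The respiratory chain showed the opposite pattern. Of 28 tested members, 25 were higher in the thione than in the CQ cultures, 1 was lower and 2 did not pass, with a median of 3.99. With CQ 25 fell and 1 rose against DMSO (median -4.07), and with the thione 0 were called (median -0.16). Of the 26 direct calls, 25 were present whichever library was left out.

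CYC1, the main cytochrome c, read 111 and 114 CPM in DMSO, 1.4 and 0.939 with CQ, and 99.3 and 103 with the thione. It was 84.5-fold higher in the thione than in the CQ cultures (log2 6.4, SE 0.22, edgeR adjusted p 3.97e-07). Against DMSO the thione value was -0.15 on the log2 scale with a 95% interval of -0.5 to 0.2. CYT1, the cytochrome c1 gene whose product hands electrons to cytochrome c, read 803 and 885 CPM in DMSO, 14.8 and 20.4 with CQ, and 629 and 714 with the thione. RIP1, the Rieske iron-sulfur protein of the same complex, read 273 and 224 CPM in DMSO, 4.85 and 7.71 with CQ, and 168 and 226 with the thione. Both thione libraries of CYT1 lay below both DMSO libraries, with a difference of -0.33 that did not pass (edgeR adjusted p 0.447).

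Succinate dehydrogenase links the citric acid cycle to the chain. SDH2, its iron-sulfur subunit, read 429 and 533 CPM in DMSO, 17.9 and 15.1 with CQ, and 488 and 651 with the thione. SDH1 and SDH4, the flavoprotein and a membrane anchor, were 20.8-fold and 21.3-fold higher in the thione than in the CQ cultures, against 34.5-fold for SDH2. QCR7, a subunit of the cytochrome bc complex without a metal, was 18.8-fold higher, and COX26, a cytochrome oxidase subunit, 40.7-fold higher at 0.593 and 0.604 CPM with CQ. CIR2, a putative flavoprotein dehydrogenase outside this list, read 4.42 and 3.89 CPM with CQ and 154 and 160 with the thione. The range over the list thus covered subunits with and without iron.

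Within this list some genes for related functions differed, and these pairs were chosen after their values were seen. NDI1, the internal NADH dehydrogenase, read 228 and 189 CPM in DMSO, 6.36 and 11.3 with CQ, and 178 and 194 with the thione. Its log2 difference was 4.41. Of the external enzymes, NDE1 differed by 0.67 (edgeR adjusted p 0.0992, and 0.00676 without CQ replicate 1, where its difference was 1.12). NDE2 was lower in the thione cultures by -1.16, with 21 and 28.2 CPM with CQ against 9.8 and 12.1, a call absent without thione replicate 1 (adjusted p 0.0575). COX5A, the aerobic form of a cytochrome oxidase subunit, read 6.68 and 18.1 CPM with CQ and 143 and 150 with the thione. COX5B, its hypoxic form, read 39.3 and 39.5 CPM with CQ and 39.3 and 58.5 with the thione, a difference of 0.31 that did not pass. CYC7, the hypoxic cytochrome c, in contrast differed in the same direction as CYC1, by 4.76. The differences between paired genes were not tested.

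ATP synthase genes were higher in the thione than in the CQ cultures by a smaller amount. Of 14 members 13 were higher and 1 did not pass, with a median of 1.1 and a range of 0.86 to 2. How many were called higher depended on the library left out. With CQ 13 fell against DMSO, and with the thione 0 were called. ATP20, a subunit of the membrane part, read 85.9 and 73.6 CPM in DMSO, 13.1 and 21.7 with CQ, and 68 and 70.3 with the thione. ATP19 and TIM11, subunits tied to the enzyme's dimers, were 2.71-fold and 2.35-fold higher than with CQ. ATP15 did not pass (log2 0.86, edgeR adjusted p 0.0672, and 0.00292 without CQ replicate 2). Its CQ libraries differed from each other, at 78.6 and 151 CPM.

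HAP4, the regulatory subunit of the CCAAT-binding complex, read 327 and 286 CPM in DMSO, 64.3 and 61.6 with CQ, and 378 and 292 with the thione. It was 5.32-fold higher in the thione than in the CQ cultures (edgeR adjusted p 1.32e-05). Its thione libraries overlapped DMSO. The other subunits HAP2, HAP3 and HAP5 did not pass, with log2 differences of 0.35, -0.19 and 0.7. In the list of 10 Hap and hypoxia regulators that holds them, 3 were higher, 1 was lower and 6 did not pass, with a median of 0.08. The lower gene was UPC2 (log2 -0.56), and 0 were lower with the thione and CQ libraries fitted alone.

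**Figure D3:**
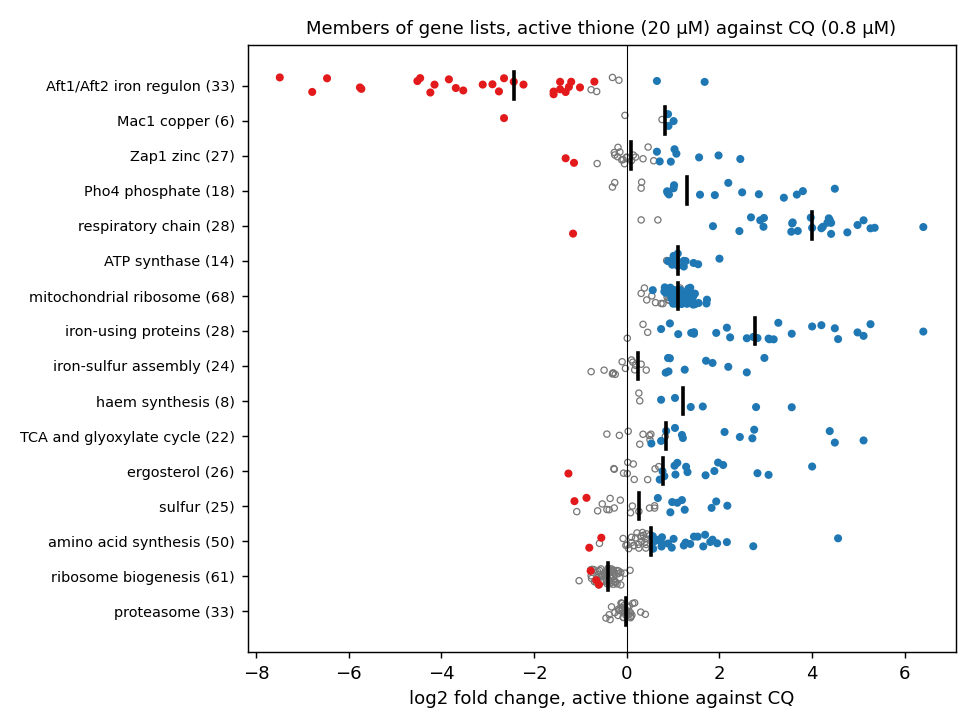
Each point is a gene, placed by its log2 fold change in the active thione against the CQ libraries (x axis) within its list (y axis, number of tested members in parentheses); filled points passed the edgeR threshold (red lower, blue higher), open points did not, and bars mark medians. The iron regulon median is -2.44 and the respiratory chain median 3.99, while proteasome genes lie around 0.

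Iron-using enzymes outside the chain were higher in the thione cultures too. Over 28 genes of iron-using proteins, some shared with the chain, 25 were higher, 0 lower and 3 did not pass, with a median of 2.77. With CQ 25 fell against DMSO (median -2.83), and with the thione 0 were called (median 0.01). LEU1, an iron-sulfur isomerase of leucine synthesis, read 1956 and 1898 CPM in DMSO, 103 and 90.6 with CQ, and 2310 and 2240 with the thione. ACO1, the aconitase of the citric acid cycle, read 555 and 670 CPM in DMSO, 24.5 and 29.8 with CQ, and 538 and 678 with the thione. They were 23.5-fold and 22.4-fold higher than with CQ (edgeR adjusted p 4.22e-07 and 9.91e-07).

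Haem peroxidases and catalase belonged to the same group. CCP1, the mitochondrial cytochrome c peroxidase, read 184 and 217 CPM in DMSO, 10.7 and 11.6 with CQ, and 183 and 228 with the thione. CTT1, the cytosolic catalase, read 20.1 and 22.4 CPM in DMSO, 1.4 and 2.08 with CQ, and 12.8 and 16.3 with the thione. CTT1 with the thione lay below DMSO in both libraries, by -0.54, which did not pass (edgeR adjusted p 0.334). The 3 genes that did not pass in the direct comparison, OLE1, ERG25 and ERG3, encode lipid enzymes with a di-iron centre. Their log2 differences were 0.35, 0.45 and 0.01, with ERG25 called without CQ replicate 1 (0.74, adjusted p 0.042). OLE1, the fatty acid desaturase, read 5894 and 5136 CPM in DMSO, 2595 and 2153 with CQ, and 3461 and 2599 with the thione. It lay below DMSO in both treatments, with an edgeR adjusted p of 0.00719 for CQ and 0.134 for the thione.

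Ribonucleotide reductase subunits split by role. RNR2 and RNR4, the small subunits of which Rnr2 holds the iron, were 2.73-fold and 4.69-fold higher in the thione than in the CQ cultures. RNR4 read 713 and 635 CPM in DMSO, 130 and 200 with CQ, and 785 and 765 with the thione. WTM1, which anchors these small subunits in the nucleus, was 4.42-fold higher. The large subunits RNR1 and RNR3, chosen after their values were seen, were lower, by -0.75 and -1.18. RNR1 lost its call without thione replicate 2 (edgeR adjusted p 0.07). RNR3 read 55.2 and 65.9 CPM with CQ and 27.9 and 25.7 with the thione.

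Haem synthesis genes were higher in 6 of 8 members, and 2 did not pass. HEM15, the ferrochelatase that inserts iron into haem, read 68 and 90.4 CPM in DMSO, 6.41 and 11.1 with CQ, and 65.4 and 139 with the thione. HEM13 and HEM1, which act earlier in the pathway, were 6.91-fold and 3.12-fold higher than with CQ. Of 24 genes of iron-sulfur cluster assembly, 10 were higher and 14 did not pass, with a median of 0.25. For this list and for haem synthesis, how many were called higher depended on the library left out. ISA1, a late mitochondrial assembly factor, YFH1, yeast frataxin, and GRX5, a mitochondrial glutaredoxin, were 7.83-fold, 6-fold and 4.55-fold higher. CCC1, which moves iron into the vacuole and answers to high iron, read 58.5 and 67.8 CPM in DMSO, 8.73 and 9.59 with CQ, and 48.8 and 86.9 with the thione. GRX4, which helps switch off Aft1, was 4.02-fold higher than with CQ. CCC1 and GRX4 were the 2 higher members of a list of 9 iron-sensing regulators and high-iron genes. Of the others 3 were lower and 4 did not pass, and the list median was -0.14. The lower members YAP5, AFT1 and AFT2 differed by -0.85, -0.93 and -0.72.

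Phosphate genes were higher in the thione than in the CQ cultures. Of 18 Pho4 regulon members, 14 were higher in the thione than in the CQ cultures, 0 lower and 4 did not pass, with a median of 1.3. Against DMSO 8 rose with the thione (median 0.88), while 2 rose and 7 fell with CQ (median -0.45). The 8 rises with the thione numbered 4 without DMSO replicate 1 or 2 or thione replicate 1 or 2. The 7 falls with CQ numbered 3 without DMSO replicate 1 and 4 without CQ replicate 1. The 2 rises numbered 1 without DMSO replicate 1 or 2, CQ replicate 2, or inactive thione replicate 1 or 2. Of the 14 direct calls, 12 were present whichever library was left out. The inactive thione libraries also stood above DMSO for several of these genes, at 212 and 142 CPM for PHO5, and how far this level bears on the difference from CQ was not tested.

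PHO5, the secreted acid phosphatase, read 89.1 and 71.8 CPM in DMSO, 28.3 and 28.8 with CQ, and 649 and 632 with the thione. CQ lay below DMSO and the thione above it, with no overlap of the 3 groups. PHO5 was 22.4-fold higher in the thione than in the CQ cultures (log2 4.49, SE 0.23, edgeR adjusted p 1.69e-06). Against DMSO it rose 7.95-fold with the thione and fell 2.82-fold with CQ. GIT1, which imports glycerophosphodiesters as a phosphate source, read 43.8 and 45.1 CPM in DMSO, 17.8 and 14.6 with CQ, and 191 and 224 with the thione. SPL2, which restrains low-affinity phosphate uptake, read 22.5 and 23.5 CPM in DMSO, 14.9 and 11.2 with CQ, and 88 and 101 with the thione. GIT1 and SPL2 were 12.8-fold and 7.22-fold higher than with CQ. The fall of SPL2 with CQ against DMSO was no longer called with DMSO replicate 1 or 2 left out (edgeR adjusted p 0.0828 and 0.0978).

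The sodium-coupled phosphate transporter departed from this order. PHO89 read 47.6 and 39.7 CPM in DMSO, 117 and 104 with CQ, and 678 and 566 with the thione. It rose against DMSO in both treatments, 2.54-fold with CQ and 14.2-fold with the thione, and was 5.61-fold higher in the thione than in the CQ cultures (edgeR adjusted p 2.05e-05). PHO84, the proton-coupled transporter, read 2017 and 2143 CPM in DMSO, 2345 and 1766 with CQ, and 4088 and 3476 with the thione. Its 1.84-fold difference was not called without CQ replicate 2 (adjusted p 0.0502) or thione replicate 1 (0.0829).

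PHO8, the vacuolar phosphatase, read 95.5 and 94.5 CPM in DMSO, 51.2 and 43.2 with CQ, and 180 and 173 with the thione. VTC3, of the polyphosphate-making vacuolar complex, was 3-fold higher than with CQ, and PHO81, the inhibitor of the kinase that shuts off Pho4, 2.01-fold higher. PHM6 read 5.23 and 2.21 CPM with CQ and 16.8 and 17.6 with the thione. PHO12 was 14-fold higher but shares nearly all of its sequence with PHO11, and the counting could split their reads. PHM7, PHM8, PHO86 and GPP2 did not pass, with log2 differences of -0.26, 0.31, 0.32 and -0.31.

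**Figure D4:**
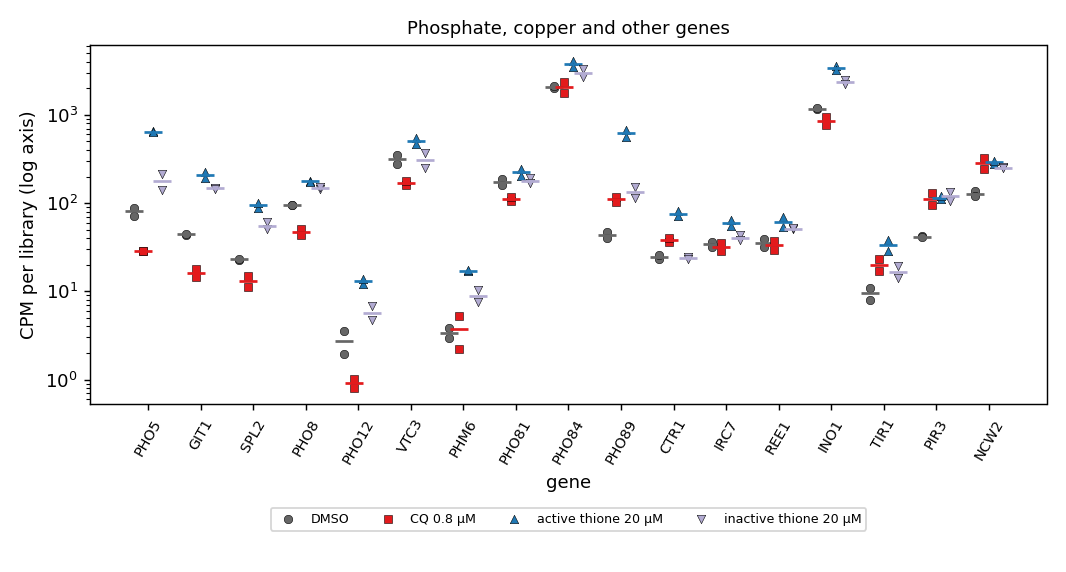
CPM of each library on a log axis (y) for 17 genes (x) in the DMSO, CQ (0.8 µM), active thione (20 µM) and inactive thione (20 µM) groups; points are the 2 libraries and dashes their mean. PHO5 lies lowest with CQ at 28.3 and 28.8 CPM and highest with the active thione at 649 and 632, while PIR3 and NCW2 lie at like levels in both.

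Copper uptake genes were mixed. Of 6 Mac1 genes, 3 were higher in the thione than in the CQ cultures, 1 was lower and 2 did not pass, with 1 higher without thione replicate 2. CTR1, the high-affinity copper transporter, read 23.5 and 25.9 CPM in DMSO, 35.8 and 39.8 with CQ, and 70.9 and 81.2 with the thione. The 3 groups were apart, with the thione 2.01-fold above CQ (log2 1.01, SE 0.15, edgeR adjusted p 0.00146). Against DMSO it rose 3.08-fold with the thione (adjusted p 0.00195, and 0.0788 without DMSO replicate 1) and 1.53-fold with CQ. The rise with CQ was not called without DMSO replicate 1 (adjusted p 0.266), DMSO replicate 2 (0.111), CQ replicate 2 (0.0576) or inactive thione replicate 2 (0.05).

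The other Mac1 genes did not share one direction. IRC7, a cysteine-cleaving enzyme, and REE1 were 1.87-fold and 1.85-fold higher with the thione. IRC7 lost its call without thione replicate 2 (edgeR adjusted p 0.0521), and REE1 without CQ replicate 1 (0.056) or thione replicate 2 (0.1). FRE1, described above with iron, was 6.28-fold lower. The copper transporter CTR3 and the reductase FRE7 did not pass, with differences of -0.04 and 0.76. Of the 4 genes of the Cup2 list, CUP1-1 and CUP1-2 were not tested, which left CRS5 and SOD1. The list therefore says nothing about the CUP1 genes. Both tested genes of the Cup2 list, the copper-excess response, did not pass in any of the 3 comparisons, and 1 of them was higher than with CQ without thione replicate 1.

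Zinc genes gave no common direction: of 27 Zap1 genes, 8 were higher, 2 lower and 17 did not pass, with a median of 0.1. Without thione replicate 1 the higher genes numbered 5, and without thione replicate 2 the lower genes numbered 1. The zinc transporters ZRT1 and ZRT2 differed by 0.1 and 0.35, with 95% intervals of -0.26 to 0.47 and -0.05 to 0.76. ZAP1, the zinc sensor, read 51.8 and 44.2 CPM in DMSO, 19.7 and 21.1 with CQ, and 68.6 and 52.3 with the thione. FET4, a low-affinity importer of iron and zinc that Aft1 also controls, read 137 and 132 CPM in DMSO, 329 and 313 with CQ, and 124 and 134 with the thione. TSA1, a thioredoxin peroxidase, was 5.48-fold higher with the thione than with CQ, and IZH4, a membrane protein, 2.21-fold lower, with no call without thione replicate 2 (edgeR adjusted p 0.072). INO1, which makes inositol phosphate and is also on this list, read 1157 and 1203 CPM in DMSO, 775 and 943 with CQ, and 3560 and 3239 with the thione.

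Mitochondrial ribosome genes were higher in the thione than in the CQ cultures. Of 68 members, 57 were higher, 0 lower and 11 did not pass, with a median of 1.11 and a range of 0.31 to 1.73. Against DMSO 22 fell with CQ (median -0.58), and 0 were called with the thione, with all 68 values above 0 (median 0.51). The 22 falls with CQ numbered 8 without DMSO replicate 1, 4 without DMSO replicate 2, 12 without CQ replicate 1 and 36 without CQ replicate 2, and 3 were present whichever library was left out. RSM28 read 69.5 and 73 CPM in DMSO, 27.8 and 32.7 with CQ, and 80.8 and 86.5 with the thione. MRPS9 and MRPL3, of the small and large subunit, were 2.63-fold and 2.48-fold higher than with CQ. In the thione libraries MRPL3 read 95.7 and 119 CPM against 71.3 and 75.5 in DMSO, 1.47-fold, which did not pass (edgeR adjusted p 0.149). Of the 57 direct calls 41 were present whichever library was left out. MEF1, a mitochondrial translation elongation factor chosen after its values were seen, fell 2.74-fold with CQ and rose 1.74-fold with the thione against DMSO.

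Cytosolic growth genes gave few calls. Of 61 ribosome biogenesis genes 3 were lower in the thione cultures (median -0.41, with 1 value above 0), a count that was 23 without CQ replicate 2, 1 without thione replicate 1, and 0 without CQ replicate 1 or thione replicate 2. DESeq2 called 13 lower. Against DMSO, edgeR called 0 of the 61 in either treatment. With the thione 60 values were below 0 and 1 above (median -0.34), and with CQ 40 were above 0 and 21 below (median 0.07). Of 19 ribosomal protein genes and 33 proteasome genes 0 passed in edgeR, with medians of 0.06 and -0.02. Without CQ replicate 2, 3 ribosomal protein genes were higher. Proteasome calls numbered 1 higher and 1 lower without CQ replicate 2, and 1 higher without thione replicate 1.

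Citric acid cycle, sterol and sulfur genes were higher in part. Of 22 citric acid and glyoxylate cycle genes, 13 were higher in the thione than in the CQ cultures and 9 did not pass, with a median of 0.84. Of 26 ergosterol genes, 15 were higher, 1 lower and 10 did not pass, with a median of 0.79. For both lists, and for the sulfur genes below, how many were called higher depended on the library left out. ERG11, the haem-containing demethylase of sterol synthesis, read 4874 and 4287 CPM in DMSO, 455 and 460 with CQ, and 4439 and 3206 with the thione. ERG1, squalene epoxidase, was 3.92-fold higher than with CQ, and ERG28, a scaffold of the pathway, 3.24-fold. The 1 lower call was absent without thione replicate 1 or 2. Of 25 sulfur genes 9 were higher, 2 lower and 14 did not pass, the lower count being 1 without DMSO replicate 1 or 2 and 0 without thione replicate 1 or 2. MET5, of the haem- and iron-sulfur-containing sulfite reductase, read 19.7 and 19.8 CPM with CQ and 71.7 and 79.1 with the thione. MET6, methionine synthase, and MET13, a folate reductase, were 4.49-fold and 3.55-fold higher.

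Of 50 amino acid genes, 24 were higher in the thione cultures, 2 lower and 24 did not pass, with a median of 0.53. How many were called higher or lower depended on the library left out. They fell into different patterns against DMSO. GLT1, the iron-sulfur glutamate synthase, read 477 and 458 CPM in DMSO, 78.3 and 77 with CQ, and 535 and 494 with the thione. ILV3, an iron-sulfur dehydratase of branched-chain synthesis, was 4.46-fold higher than with CQ, where it had fallen against DMSO. HIS4, of histidine synthesis, read 233 and 209 CPM in DMSO, 213 and 121 with CQ, and 741 and 556 with the thione. ARG1, of arginine synthesis, read 711 and 630 CPM in DMSO, 529 and 486 with CQ, and 1863 and 1414 with the thione. Both rose with the thione against DMSO, 2.93-fold and 2.44-fold, and were not called with CQ (edgeR adjusted p 0.341 and 0.204). HIS3 was 2.01-fold higher than with CQ. BIO2, biotin synthase, an iron-sulfur enzyme, read 61.9 and 69.2 CPM in DMSO, 8.51 and 7.11 with CQ, and 65.8 and 75 with the thione.

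Stress and transport genes gave scattered calls. Of 21 heat shock genes 0 were higher and 2 lower, of 27 general stress genes 1 was higher and 5 lower, and of 27 oxidative stress genes 7 were higher and 2 lower. With single libraries left out, the lower counts ranged from 1 to 3, 1 to 6 and 1 to 3. Without CQ replicate 2, 2 heat shock genes were higher, and without CQ replicate 1, 4 oxidative stress genes were. General stress genes lower numbered 1 without thione replicate 1, 2 without thione replicate 2, and 3 when any of DMSO replicates 1 and 2, CQ replicate 2 and inactive thione replicate 1 was left out. Heat shock genes lower numbered 1 without thione replicate 1 or 2, and oxidative stress genes lower 1 without thione replicate 1. HSP26, a small chaperone, read 9.99 and 10.8 CPM in DMSO, 53.4 and 81.1 with CQ, and 4.69 and 7.31 with the thione. GTO3, a glutathione transferase, read 0.918 and 1.72 CPM in DMSO, 67.7 and 56 with CQ, and 4.69 and 6.69 with the thione. GRE1, a stress hydrophilin, read 6.86 and 6.72 CPM in DMSO, 19.9 and 24.3 with CQ, and 2.09 and 2.9 with the thione. HSP26 and GRE1 with the thione lay below DMSO, by -0.78 and -1.43, which did not pass. GTO3 lay above it, by 2.16, which passed.

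Among 21 drug efflux genes 4 were higher and 1 lower. The higher genes numbered 1 without CQ replicate 1 and 2 without thione replicate 1, and the lower numbered 2 without CQ replicate 2. VMR1, a vacuolar transporter of the ABC family, read 27.9 and 32 CPM in DMSO, 268 and 288 with CQ, and 45.2 and 53.7 with the thione. TPO4, a polyamine exporter, read 23.9 and 25.5 CPM in DMSO, 10.6 and 12.1 with CQ, and 62.3 and 76.6 with the thione. Peptide and glutathione importers differed in both directions. Of 6 such genes 2 were higher and 1 lower. OPT1 was 4.14-fold lower with the thione, at 3.18 and 3.79 CPM against 17.5 and 11.5 with CQ, and OPT2 3.82-fold higher, at 141 and 185 CPM against 34.8 and 50.6. Of 16 calcineurin genes 3 were higher and 0 lower, with 3 lower without CQ replicate 2. CMK2, a calmodulin-dependent kinase and calcineurin target, read 49.4 and 43.2 CPM in DMSO, 83.2 and 59.9 with CQ, and 138 and 181 with the thione. Of 9 hexose transport genes 2 were lower, and of 23 glycolysis and fermentation genes 3 were higher (5 without CQ replicate 2) and 2 lower. HXT5, a hexose transporter, and ADH2, an alcohol dehydrogenase, were 3.05-fold and 3.82-fold lower with the thione, and ADH5 2.53-fold higher.

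A smaller set of genes moved in the same direction against DMSO in both treatments: 28 rose and 6 fell, from comparisons that share the DMSO libraries. In the direct comparison 9 of the rises were called lower with the thione and 2 higher, 2 of the falls were called higher, and the rest were not called. Only some of these genes are named here, and the set was not searched for small direct differences. For 4 of the named genes the direct difference was small, with intervals that leave out a 2-fold difference. PIR3, a cell-wall protein, read 42.6 and 40.9 CPM in DMSO, 95.3 and 130 with CQ, and 110 and 120 with the thione, and its direct difference was 0.03 (95% interval -0.38 to 0.44). NCW2, another wall protein, differed by 0.03 (-0.35 to 0.4), and YPL088W, a putative alcohol dehydrogenase, by 0.06 (-0.28 to 0.4). HXT2, a hexose transporter, read 6.7 and 6.41 CPM in DMSO, 23 and 25.3 with CQ, and 17.7 and 24.4 with the thione, a difference of -0.2 (-0.67 to 0.28). Their rises with the thione against DMSO were not called without DMSO replicate 1, DMSO replicate 2 or thione replicate 2, with edgeR adjusted p from 0.0881 to 0.177. Without thione replicate 1, the adjusted p was 0.0635 for NCW2 and 0.0518 for YPL088W. FMP48, a mitochondrial kinase, read 91.9 and 74.9 CPM in DMSO, 8.03 and 8.92 with CQ, and 29.8 and 27.3 with the thione, below DMSO in both and 3.37-fold higher with the thione. Its fall with the thione was not called without DMSO replicate 1 (adjusted p 0.0832) or thione replicate 2 (0.0813).

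Another 13 genes were called in opposite directions against DMSO, and the 4 given here were chosen after their values were seen. ARO10, a decarboxylase of the aromatic amino acid breakdown route, read 150 and 179 CPM in DMSO, 238 and 285 with CQ, and 61.7 and 79.2 with the thione. PLB2, a phospholipase, was 2.88-fold lower with the thione than with CQ, and PMA2, a plasma-membrane proton pump, 3.32-fold lower. YAT2, a carnitine acetyltransferase, read 135 and 141 CPM in DMSO, 41.8 and 45.1 with CQ, and 241 and 212 with the thione. The direct differences of these 4 genes were -1.89, -1.53, -1.73 and 2.38.

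Among markers of cell type and state, the alpha-cell genes differed between the groups and the other lists gave few calls. The 4 genes particular to alpha cells had a summed level of 1844 and 1503 CPM in DMSO, 544 and 861 with CQ, and 1335 and 1070 with the thione, and 3 of them were higher in the thione than in the CQ cultures. MF(ALPHA)2, a pheromone precursor, read 1.13 and 0.939 CPM with CQ and 5.19 and 7.03 with the thione, and SAG1, the alpha agglutinin, 23.9 and 24.3 against 71.8 and 46.3. The 6 genes particular to a cells summed to between 6.41 and 8.35 CPM in these libraries, with 2 tested and 0 called. Of 7 tested meiosis genes 1 was higher, SPO11, at 2.48 and 3.42 CPM with CQ and 15.7 and 20.4 with the thione. Their summed level was 30.2 to 33.3 CPM with CQ and 43.6 to 47.7 with the thione. Of 5 tested stationary-phase genes 1 was higher and 1 lower. With the thione and CQ libraries fitted alone, 0 were higher and 0 lower. Stationary-phase genes summed to 256 and 259 CPM with CQ and 222 and 234 with the thione. In bulk RNA, fewer cells of a kind and less RNA per cell cannot be told apart. The part of these markers in the results above was not tested.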

How the data were processed

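Each library has a column of raw counts in a table the authors deposited, and a second column of normalized signal, the count divided by a factor per library, which no test used. The submitters' processing notes name sacCer3, TopHat and its version TopHat2 2.1.1, DESeq and HTSeq. They give no annotation, strand or counting mode. Per the labels' protocols, RNA came from hot acid phenol extraction and libraries from the PrepX kit.

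The table lists 7122 features, 725 of them without a count, and 4 emptied lines were not analysed. RefSeq R64 names 6076 of them. Counts went into edgeR 4.0.16 (R 4.3.3), two-sided quasi-likelihood test, with TMM scaling, filterByExpr (5696 kept), all 8 libraries in 1 fit, and Benjamini-Hochberg adjustment over all tested features at 0.05. The common biological coefficient of variation was 0.1526. SE is that of the log2 fold change, and intervals are 95%. CPM of 3 counts was 0.158 to 0.248, a limit for counting error only. On simulated counts of the direct comparison over 5696 features, 82% of 2-fold and 96% of 4-fold changes were called, and 0.182% of unchanged features. The simulation changed 100 features at each fold and gave all groups the same spread for a gene. Its rates hold for that setting and do not measure the error in these libraries.

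The groups, members and 37 gene lists were chosen with earlier results of these data known, and no list was tested as a set. Named genes were the 12 largest differences each way in the direct comparison (average log2 CPM of at least 3, groups apart), up to 3 called members per list in the direct comparison and against DMSO, 10 genes called alike against DMSO, and any metal or phosphate list member. Any other gene named was chosen after its values were seen, whether or not this is said beside it. Alternatives were DESeq2 1.42.0, other scaling, filters, fits of the compared groups alone, a replicate block, and leaving out each library. A result withheld for evaluation is not reported here.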

Additional observations from a re-analysis of the deposited data

Results flagged for a closer look

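The inactive thione libraries enter no comparison of the report, yet stood above DMSO for several genes that were high with the active thione. Of the 18 tested Pho4 regulon genes, 11 had both inactive thione libraries above both DMSO libraries. With 2 libraries a group such separation is common. For the active thione against DMSO, 53.1% of all 5696 tested features were apart, in either direction. The share was not computed for the inactive thione, so no result about the regulon is drawn from the 11. PHO5 had a mean of 177 CPM with the inactive thione, at 212 and 142 CPM in its 2 libraries, against 89.1 and 71.8 in DMSO and 649 and 632 with the active thione. GIT1 had a mean of 146 CPM with the inactive thione, against 43.8 and 45.1 CPM in DMSO. INO1 had a mean of 2346 CPM with the inactive thione, at 2469 and 2223 CPM, against 1157 and 1203 in DMSO and 3560 and 3239 with the active thione. Both CQ libraries lay below both DMSO libraries for PHO5, GIT1 and INO1.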

How the results depend on the processing

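The direct comparison of thione with CQ called 969 features, and 685 to 1171 in the 6 settings that kept all libraries of the groups compared: 974 with median-of-ratios scaling, 978 without a filter, 1145 with DESeq2, 685 on the compared groups alone (146 lower, against 262), 1171 with a replicate block and 970 on RefSeq features only. With single libraries left out it called 585 to 1593 features, CQ against DMSO 367 to 1419 (758 with all) and the thione against DMSO 4 to 108 (78 with all). The thione against DMSO called 188 with DESeq2, 133 on the compared groups alone and 174 with the block. With the block, genes lower with the thione than with CQ numbered 14 for ribosome biogenesis (3 without it; 13 with DESeq2), 6 for heat shock (2), 11 for general stress (5) and 4 for oxidative stress (2), and mitochondrial ribosome genes that fell with CQ numbered 36 (22; 37 with DESeq2). Same-numbered libraries did not deviate together in every pair (correlations from -0.153 to 0.43), so the numbers were not taken to pair the libraries. On the DMSO and CQ libraries alone, CQ against DMSO called 486 with the block as labelled and 756 with the numbers crossed. Of 2114 values of named genes in these alternatives, 2050 kept direction and side of the threshold, 41 lost a call, 7 gained one and 16 changed sign. The sign changes were in differences that had not passed and stayed so. ERG3 was -0.01 with median-of-ratios scaling and with DESeq2. With a library left out, values ranged from -0.09 to 0.1 for ERG3, -0.71 to 0.32 for LEE1, -0.004 to 0.57 for COX5B, -0.61 to 0.15 for PHM7, -0.14 to 0.06 for CTR3, -0.19 to 0.28 for PIR3, -0.17 to 0.24 for NCW2, -0.06 to 0.18 for YPL088W and -0.45 to 0.02 for HXT2. The cause was not tested. With 2 libraries a group, an arm left with 1 library was assumed to vary like the others.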
